A study of Ovis aries with 32 samples.

Results

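Expression of HERPUD1, ALG1, PIGT and PPID was examined in the left ventricular free wall (LV) and interventricular septum (IVS) of the lamb heart. These 4 genes of the endoplasmic reticulum and of protein folding were each read by 1 probe, out of 15008 probes on the array. They were selected on the measured difference between groups of lambs, since the study listed HERPUD1, ALG1 and PPID as higher and PIGT as lower in the LV of lambs of cortisol-infused ewes, and HERPUD1 as higher in the IVS too. The LV contrast of all 4 probes, and the IVS contrast of HERPUD1, are therefore given as descriptions without a test.

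The lambs were sheep (Ovis aries) killed at 14 days of age. CORT lambs were born to ewes that received cortisol at 0.5 mg/kg/day, given overnight from about day 115 of gestation until delivery, and Control lambs were born to ewes that received no infusion. The lambs themselves received no cortisol, and the ewes of both groups carried catheters placed at surgery. Each tissue was represented by 8 Control and 8 CORT arrays with 1 lamb per array. Both tissues were taken from the same hearts, so the 32 arrays come from 16 lambs. A set of twins was born in each group, and which arrays hold twins is not given, so the p-values treat all 8 lambs of a group as independent.

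Proteins that are secreted or that span a membrane are folded in the endoplasmic reticulum, where they also receive sugar chains and lipid anchors. When unfolded protein builds up there, the unfolded protein response raises the expression of chaperones and of the machinery that returns misfolded protein to the cytosol for destruction, a process called endoplasmic reticulum-associated degradation. HERPUD1 is a membrane protein of that machinery and a well known target of the response. ALG1 is the mannosyltransferase that adds the first mannose to the lipid-linked precursor of N-glycans. PIGT is a subunit of the transamidase that attaches glycosylphosphatidylinositol (GPI) anchors to proteins. PPID, a cyclophilin, is a peptidyl-prolyl isomerase of the cytosol and a cochaperone of HSP90 in steroid receptor complexes, so it acts in folding outside the endoplasmic reticulum.

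The 4 probes are printed 5′ to 3′ because every value that follows is the brightness of these sequences. The deposited tables pair none of them with a gene symbol. Their names come from an earlier match of deposited values to the study's own list of genes, and could not be checked against a transcript sequence here.
HERPUD1 (A_70_P068376): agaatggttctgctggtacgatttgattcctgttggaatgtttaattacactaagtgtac
ALG1 (A_70_P013016): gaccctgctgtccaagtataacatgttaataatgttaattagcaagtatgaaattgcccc
PIGT (A_70_P067591): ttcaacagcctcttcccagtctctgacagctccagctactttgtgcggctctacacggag
PPID (A_70_P054516): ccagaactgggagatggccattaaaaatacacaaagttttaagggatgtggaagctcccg
Each probe has 60 bases and 1 spot per array, and none shared a run of 20 bases with another probe. GC content was 36.7% for HERPUD1 and ALG1, 45% for PPID and 55% for PIGT, against a median of 43.3% over all probes. A second probe was assigned by the array's design to the same transcript cluster as the ALG1 probe, and it is shown to allow comparison of the pair.
Second probe of the ALG1 cluster (A_70_P014136): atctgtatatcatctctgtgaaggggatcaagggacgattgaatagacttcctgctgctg

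All 4 probes were well above background on all 32 arrays, with no spot marked as an outlier, and all 4 passed the filter on dim probes in both tissues. Raw intensity, in arbitrary scanner units, ranged from 3386 to 12009 for HERPUD1, from 749.5 to 3063 for ALG1, from 251 to 1011 for PIGT and from 217 to 1475 for PPID. Over all probes, the median spot intensity per array was 131 to 332, and 60.0 to 80.6% of probes were well above background. The LV arrays lay on slides 1 and 2, each with 4 Control and 4 CORT lambs, and the IVS arrays on slides 3, 4 and 5. Slide 3 held 2 lambs of each group, slide 4 held 3 Control and 2 CORT lambs, and slide 5 held 3 Control and 4 CORT lambs. Of 18 cardiomyocyte markers, 1 was named on the array, myoglobin (MB), at a log2 intensity of 17.41 to 18.57 in the IVS and 17.78 to 18.37 in the LV. In whole tissue, fewer cells of a type and less RNA per cell cannot be told apart.

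HERPUD1 was higher in CORT lambs in both tissues, and on every slide. In the LV, its log2 normalized intensity in Control lambs ran from 12.21 through a median of 12.35 to 12.76, and in CORT lambs from 12.45 through 12.63 to 13.30. All 8 CORT lambs lay above the Control mean, and 2 of them lay above the highest Control lamb. The means were 12.40 ± 0.18 in Control and 12.68 ± 0.27 in CORT lambs (SD, n = 8 each), a log2 difference of 0.29 (SE 0.11), or 1.22-fold.

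In the IVS, HERPUD1 ran from 12.08 through 12.37 to 12.75 in Control lambs and from 12.48 through 12.76 to 13.34 in CORT lambs. Again all 8 CORT lambs exceeded the Control mean, and 5 exceeded the highest Control lamb. The means were 12.39 ± 0.24 and 12.77 ± 0.25 (SD, n = 8 each), a log2 difference of 0.39 (SE 0.12), or 1.31-fold. Within slides, the log2 difference was 0.37 and 0.20 on slides 1 and 2 of the LV, and 0.60, 0.54 and 0.13 on slides 3, 4 and 5 of the IVS. A single CORT lamb stood above the others in each tissue, and without it the difference was 0.20 in the LV and 0.31 in the IVS.

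ALG1 was higher in the LV of CORT lambs. Control lambs ran from 9.36 through a median of 10.06 to 10.37 on the log2 scale, and CORT lambs from 10.07 through 10.34 to 10.55. All 8 CORT lambs were above the Control mean and 3 were above the highest Control lamb. The means were 9.999 ± 0.295 and 10.32 ± 0.16 (SD, n = 8 each), a log2 difference of 0.32 (SE 0.11), or 1.25-fold, with 0.48 on slide 1 and 0.17 on slide 2. Without the Control lamb at 9.36, the difference was 0.23.

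PIGT was lower in the LV of CORT lambs. Control lambs ran from 9.15 through 9.23 to 9.65 and CORT lambs from 8.83 through 9.02 to 9.32 on the log2 scale. Of the 8 CORT lambs, 5 lay below the lowest Control lamb, while the other 3 lay within the Control range. The means were 9.27 ± 0.16 and 9.07 ± 0.19 (SD, n = 8 each), a log2 difference of -0.20 (SE 0.085), or 0.871-fold. The difference was -0.24 on slide 1 and -0.15 on slide 2, and -0.14 without the Control lamb at 9.65.

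PPID was higher in the LV of CORT lambs, with more overlap. Control lambs ran from 8.06 through 8.22 to 8.67 and CORT lambs from 8.12 through 8.52 to 8.75 on the log2 scale. Of the 8 CORT lambs, 7 lay above the Control mean and 2 above the highest Control lamb. The means were 8.28 ± 0.21 and 8.50 ± 0.21 (SD, n = 8 each), a log2 difference of 0.21 (SE 0.10), or 1.16-fold, with 0.10 on slide 1 and 0.33 on slide 2.

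**Figure D1:**
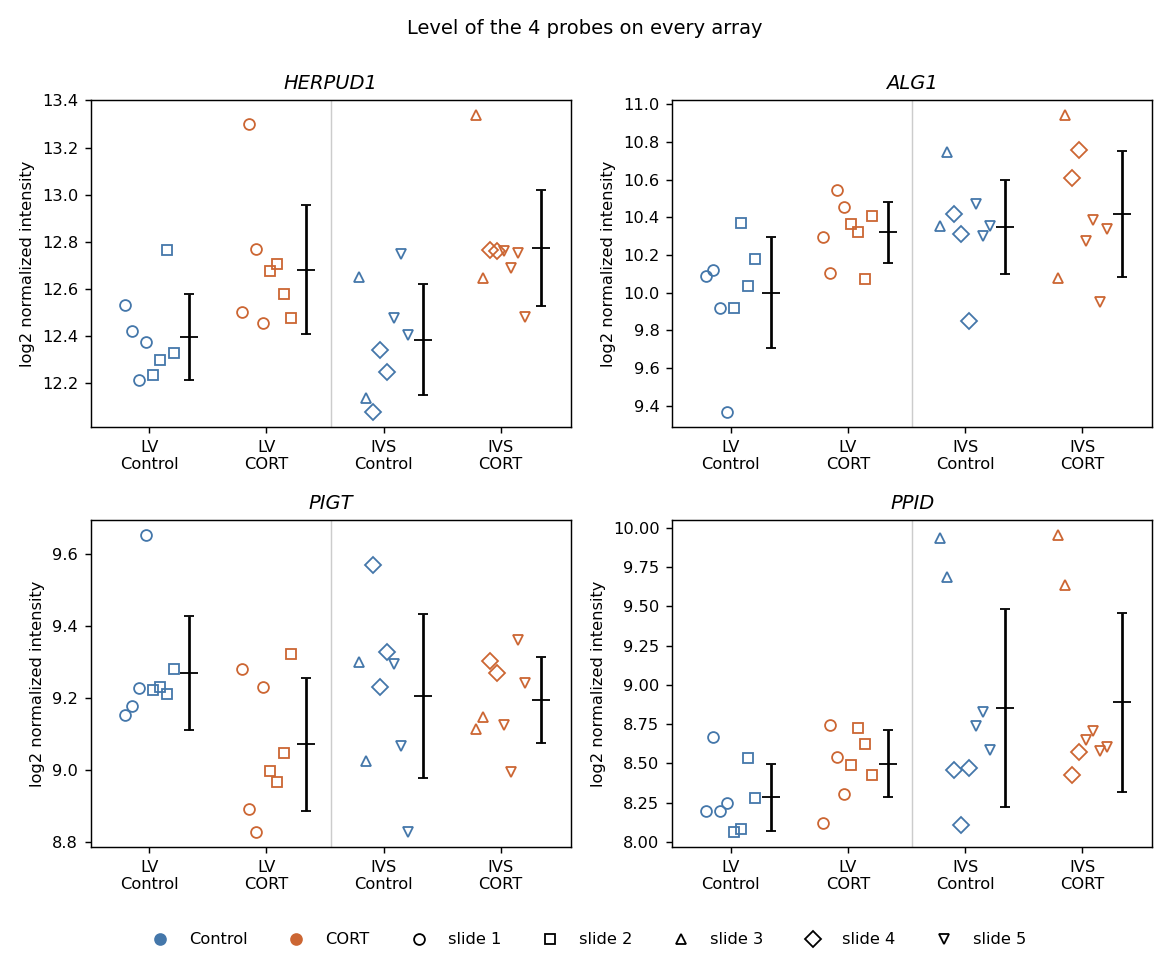
Log2 normalized intensity of the 4 probes on each of the 32 arrays, by tissue and group, with 1 point per lamb, marker shape for the slide and a bar for the mean ± SD (n = 8). CORT lambs sit higher for HERPUD1 in both tissues, with overlap, and the 4 IVS arrays of slide 3 stand above all others for PPID.

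Control and CORT lambs overlapped for all 4 probes in both tissues, while 0.0174% of probes in the LV and 0.00862% in the IVS had groups that did not overlap. In the moderated test across the 11518 LV probes (limma), 444 or 3.85% had an unadjusted p under 0.05, 191 (1.66%) higher and 253 (2.2%) lower in CORT lambs. HERPUD1, ALG1 and PIGT were among them, as the choice of these probes fixes. PIGT, at -0.20 (SE 0.085), lay just inside that limit, and PPID, at 0.21 (SE 0.10), just outside it. After Benjamini-Hochberg adjustment 0 probes passed in the LV, and 0 of 11685 passed in the IVS, where 419 or 3.59% had an unadjusted p under 0.05 (1.39% higher and 2.19% lower).

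ALG1, PIGT and PPID were chosen on the LV alone, and the study listed them in the LV only, though it took both tissues from the hearts. A failure to pass in the IVS was thus likely beforehand, and none of these 3 probes passed the test there. ALG1 ran from 9.85 through 10.35 to 10.75 in Control lambs and from 9.95 through 10.36 to 10.94 in CORT lambs. The means were 10.35 ± 0.25 and 10.42 ± 0.34 (SD, n = 8 each), a log2 difference of 0.066 (95% interval -0.21 to 0.34, exact permutation test over 12870 assignments, two-sided p = 0.660). The 4 CORT lambs above the Control mean were matched by 4 below it.

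For PIGT, Control lambs ran from 8.83 through 9.26 to 9.57 and CORT lambs from 8.99 through 9.19 to 9.36 on the log2 scale. All 8 CORT lambs lay within the Control range. The log2 difference was -0.011 (95% interval -0.20 to 0.17, two-sided exact permutation p = 0.911).

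For PPID, Control lambs ran from 8.11 through 8.66 to 9.93 and CORT lambs from 8.43 through 8.63 to 9.95. The log2 difference was 0.039 (95% interval -0.50 to 0.58, two-sided exact permutation p = 0.869). The Benjamini-Hochberg p over all IVS probes from limma was at least 0.993 for each of the 3. These intervals held the LV differences of ALG1 and PPID. For PIGT the lower end, -0.196, lay so close to its LV difference of -0.199 that the interval decides nothing. The LV differences also carry their own SE. With slide as a block the interval was -0.20 to 0.35 for ALG1, which still held 0.32, -0.14 to 0.16 for PPID, which did not hold 0.21, and -0.15 to 0.18 for PIGT, which did not hold -0.20.

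Within slides of the IVS, the log2 differences were -0.041, 0.49 and -0.14 for ALG1, -0.033, -0.090 and 0.12 for PIGT, and -0.015, 0.15 and -0.082 for PPID, in the order of slides 3, 4 and 5. The sign differed between slides for each of the 3. HERPUD1 kept its sign, but it was chosen on its IVS difference, so nothing is drawn from setting it against the other 3. The cortisol effect in the IVS minus that in the LV was 0.11 (SE 0.16) for HERPUD1, -0.25 (SE 0.19) for ALG1, 0.19 (SE 0.13) for PIGT and -0.18 (SE 0.30) for PPID. Since these estimates use the LV contrast, they are descriptions. An unadjusted p under 0.05 for this difference was found for 2.02% of all probes, and 0 passed after adjustment.

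**Figure D2:**
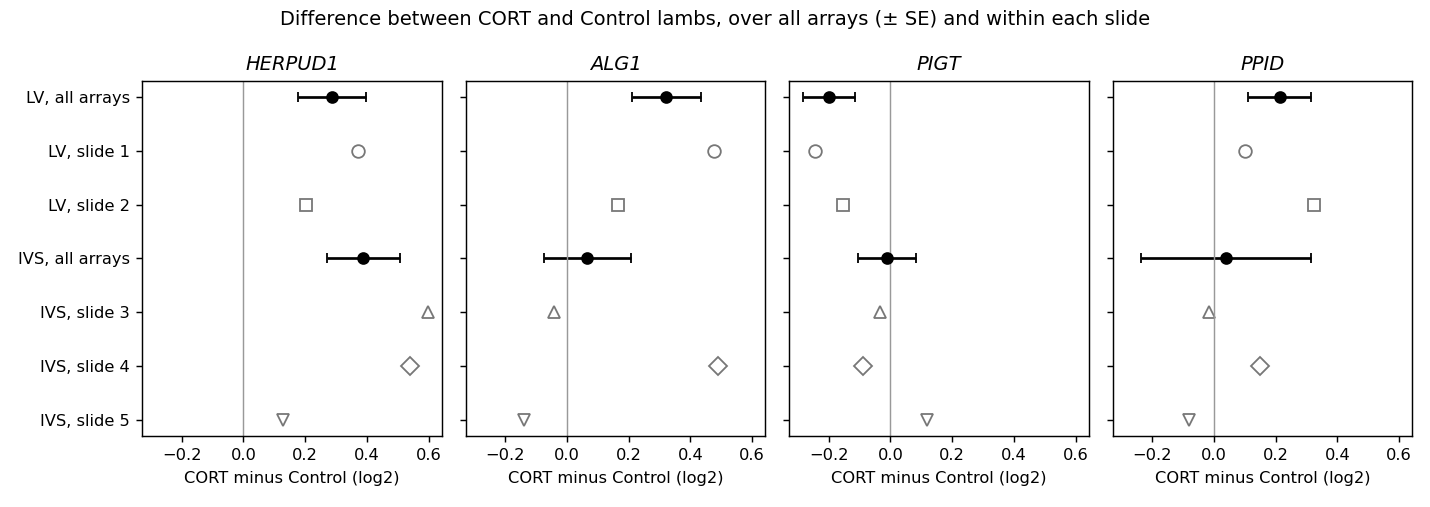
CORT minus Control on the log2 scale for each probe (x axis), over all arrays of a tissue with SE (filled points, n = 8 per group) and within each slide (open points, no error). HERPUD1, chosen on its difference in both tissues, lies above 0 in every row. ALG1, PIGT and PPID, chosen on the LV alone, lie on both sides of 0 across the 3 IVS slides.

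PPID differed between slides of the IVS far more than between groups. The 4 arrays of slide 3, 2 Control and 2 CORT, read 9.64 to 9.95 on the log2 scale, and the 12 arrays of slides 4 and 5 read 8.11 to 8.83, without overlap. Their means were 9.80 ± 0.16 (SD, n = 4) and 8.56 ± 0.18 (SD, n = 12), a difference of 1.24 or 2.36-fold. With treatment in the model, slide 3 minus the mean of slides 4 and 5 was 1.26 (SE 0.088, adjusted p = 3.83e-08 with limma), a test chosen after the values were seen.

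Many probes shared such a shift, as 30.6% of probes passed the same test (14.3% higher and 16.3% lower on slide 3), and 10.6% had arrays that did not overlap. An absolute difference larger than that of PPID was found for 1.85% of probes. For HERPUD1, ALG1 and PIGT the slide 3 difference was 0.16 (SE 0.13), 0.19 (SE 0.16) and -0.088 (SE 0.096), each with an adjusted p of 0.396 or more (limma). PPID kept a difference of 1.45 on the scanner's processed signal and of 1.32 in the matrix that the authors deposited.

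The LV arrays with the same groups and numbers as those on slide 3 did not stand apart for PPID and read 8.12 to 8.75 against 8.06 to 8.72 for the other 12, though the labels do not state that a number marks the same lamb in both tissues. The 3 IVS slides were scanned on different days, and on slide 3 76.6 to 80.6% of probes were well above background, against 67.3 to 77.6% on the other 2. The mean log2 level of each of 7 lists of cell type markers overlapped between slide 3 and the other arrays. The lists held 17 tested genes in all, with 1 to 4 in each. Most single probes overlapped as well, since 10.6% of all probes did not, so nothing is drawn from these lists. TNNC2, the troponin C of fast skeletal muscle and in none of those lists, moved with the slide. It read 13.28 to 13.96 on the 4 arrays of slide 3 and 9.08 to 9.58 on 11 of the 12 others, on the log2 scale. The exception was IVS Control lamb 3, with TNNC2 at 13.62 and PPID at 8.46. In the LV, TNNC2 was 13.38 in Control lamb 2, where PPID was 8.67, and 8.84 to 9.67 on the other 15 arrays. The part of scan, slide, lamb or other muscle in the PPID difference was not tested. Without slide 3, PPID differed between CORT and Control lambs by 0.057 (6 lambs each, exact permutation p = 0.656), and with slide as a block the SE of the cortisol effect was 0.077 in place of 0.28.

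**Figure D3:**
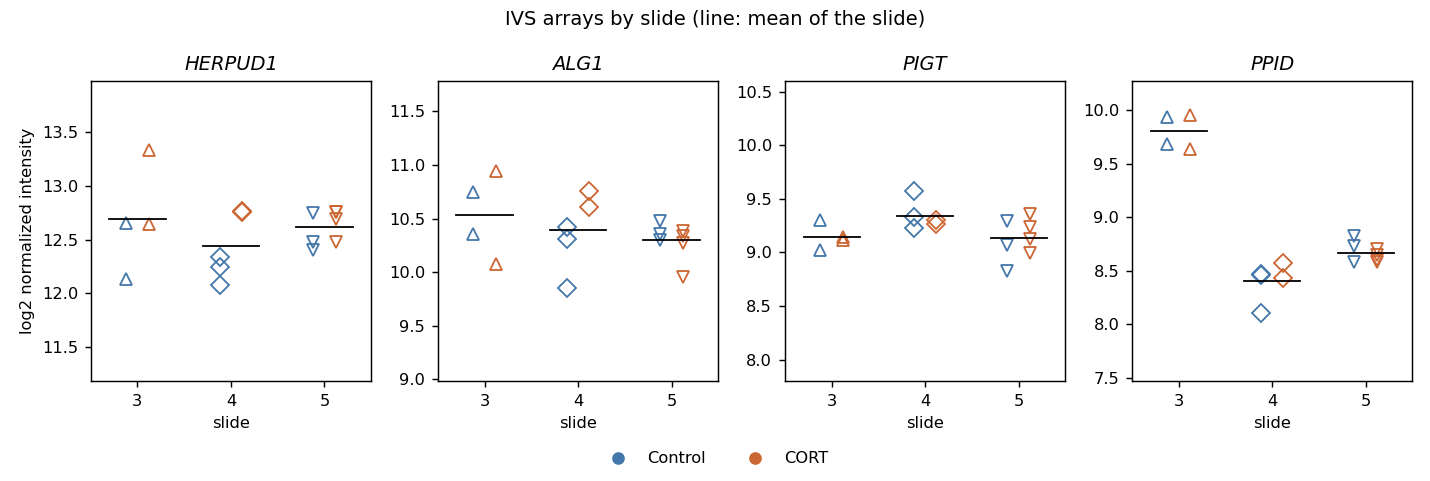
Log2 normalized intensity of each probe on the 16 IVS arrays by slide, with 1 point per lamb coloured by group and a line for the mean of the slide; each axis spans the same range. For PPID all 4 arrays of slide 3 lie between 9.64 and 9.95, above the 12 others, and for the other 3 probes the slides overlap.

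None of the 4 probes passed the test between tissues after adjustment, whereas 11.9% of 11520 probes did (6.48% higher and 5.44% lower in the IVS). IVS minus LV over all lambs was -0.046 (SE 0.082) for HERPUD1, 0.078 (SE 0.093) for ALG1, -0.12 (SE 0.064) for PIGT and 0.34 (SE 0.15) for PPID, with adjusted p of 0.757, 0.625, 0.225 and 0.137 (limma, n = 16 arrays each). The PPID difference moved with the slides used. With the IVS arrays of slide 5 alone, scanned on the same day as the LV, it was 0.15 (SE 0.085), and with slides 3 and 4 alone 0.51 (SE 0.19). Tissue and slide cannot be told apart, because no slide held both tissues.

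Array-to-array deviations from the group means, which had no part in choosing the probes, were compared between probes in 12 correlations. In the LV, HERPUD1 and PPID varied together, with Pearson r = 0.63 (permutation p = 0.00944, adjusted over the 12 p = 0.113) and Spearman rho = 0.68 (permutation p = 0.00486, adjusted p = 0.0292, n = 16). PIGT ran against HERPUD1, with r = -0.51 (permutation p = 0.0508, adjusted p = 0.246) and rho = -0.76 (permutation p = 0.00213, adjusted p = 0.0256, n = 16). By rank both LV relations passed the adjustment, and by Pearson r neither did.

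Leaving out the 2 arrays farthest from the HERPUD1 median left r = 0.62 with PPID (permutation p = 0.0260) and r = -0.51 with PIGT (permutation p = 0.0755), with an adjusted permutation p of rho of 0.0604 for both. With slide means removed as well, r was 0.75 and -0.51, and the adjusted permutation p of rho was 0.0856 and 0.151. On the processed signal, rho was 0.52 with PPID (adjusted permutation p = 0.287) and -0.75 with PIGT (adjusted permutation p = 0.0251). The call by rank was thus lost in 3 of these settings for PPID and in 2 for PIGT. Among all LV probes, 2.53% had a larger r with HERPUD1 than PPID had, and 9.99% had a smaller r than PIGT had. PIGT and PPID gave r = -0.47 (permutation p = 0.0790) and rho = -0.48, with adjusted p of 0.246 and 0.238. ALG1 and PIGT gave r = -0.43 (permutation p = 0.103) in the LV, a sign that turned to 0.41 without the 2 arrays farthest from the ALG1 median.

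In the IVS no pair passed. HERPUD1 gave r = -0.24 with PIGT (permutation p = 0.379, adjusted p = 0.556) and -0.28 with ALG1 (permutation p = 0.316, adjusted p = 0.556). Neither kept its sign, as r with PIGT was 0.093 without the 2 farthest arrays and 0.069 with slide means removed, and r with ALG1 was 0.13 without slide 3 and -0.76 with slide means removed. Since slide 3 formed a separate cluster for PPID, its relations were read over the 12 arrays of slides 4 and 5, where r was 0.48 with HERPUD1 (permutation p = 0.229), -0.35 with PIGT and 0.0051 with ALG1. Between the LV and IVS arrays of the same group and number, r was 0.15 for HERPUD1, 0.24 for ALG1, 0.013 for PIGT and 0.089 for PPID (n = 16, adjusted permutation p = 0.960 for each). Without slide 3, r for HERPUD1 was 0.77 (n = 12, permutation p = 0.0109, adjusted p = 0.0437), and rho was 0.56 (permutation p = 0.0694), a choice made after the values were seen. The adjusted p for HERPUD1 was 0.696 without the 2 lambs farthest from the LV median and 0.828 on the processed signal.

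**Figure D4:**
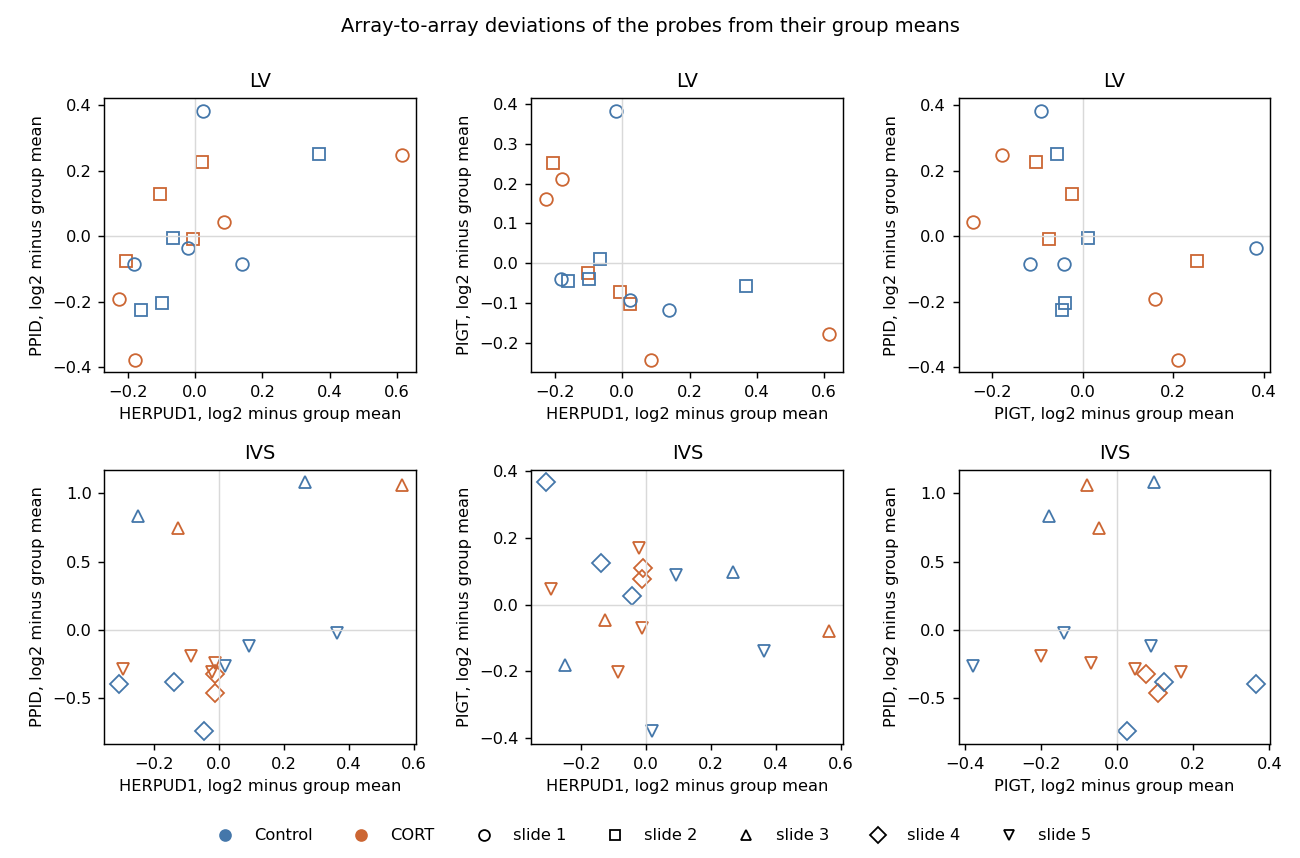
Deviation of each array from its group mean (log2) for 3 pairs of probes, in the LV (upper row) and IVS (lower row), with 1 point per array, colour for the group and marker for the slide. In the LV, PPID rises (r = 0.63) and PIGT falls (r = -0.51) with HERPUD1, and in the IVS the slide 3 arrays form a cluster of their own for PPID.

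The second probe of the ALG1 cluster gave other values than the ALG1 probe. Its sequence looks like that of a ribosomal protein gene, but neither probe could be aligned to a transcript here. Because the array's design places both in the same transcript cluster, the name ALG1 is itself uncertain. For the second probe, the difference between CORT and Control lambs was -0.12 (SE 0.092) in the LV and 0.30 (SE 0.20) in the IVS. The ALG1 probe gave 0.32 and 0.066. The deviations of the pair correlated at r = 0.46 in the LV and -0.33 in the IVS (n = 16 each). The values for ALG1 rest on 1 probe, and nothing is drawn from the second about ALG1.

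Among 932 named probes, those whose deviations were most like each of the 4 over both tissues were found by the mean of the LV and IVS Pearson r. These were picked as the highest values and carry no test. For HERPUD1 they were PTGS1, a cyclooxygenase (0.76 in the LV and 0.55 in the IVS), HSPA5, the main chaperone of the endoplasmic reticulum also called BiP (0.66 and 0.65), and VEGFA, an angiogenic growth factor (0.62 and 0.65). This HSPA5 probe is dimmer than another probe of the same gene, which was not among the 3 most alike. The CORT lamb with the highest HERPUD1 in each tissue also had the highest HSPA5, at 12.39 in the LV and 12.63 in the IVS. Without the 2 arrays farthest from the HERPUD1 median, r with HSPA5 fell to 0.19 in the LV and 0.48 in the IVS, and without slide 3 it was -0.035 in the IVS. In the same way r fell to 0.46 and 0.23 with PTGS1, and to 0.032 in the IVS without slide 3, and to 0.35 and 0.16 with VEGFA, so all 3 likenesses rest on few arrays.

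For PIGT the most alike were SLC39A7, a zinc transporter of the endoplasmic reticulum and Golgi (r = 0.74 in the LV and 0.76 in the IVS), PRKAR1A, a regulatory subunit of protein kinase A (0.77 and 0.69), and ITGB5, an integrin subunit (0.71 and 0.75). With the 2 farthest arrays left out, r was 0.61 and 0.56 with SLC39A7, 0.56 and 0.40 with PRKAR1A and 0.62 and 0.60 with ITGB5. For ALG1 they were 2 probes of glut4, the insulin-responsive glucose transporter (0.53 and 0.65, then 0.51 and 0.64), and H3F3A, a histone (0.35 and 0.76). Without the 2 farthest arrays, the LV values fell to 0.070 and 0.0035 for glut4 and 0.054 for H3F3A, whose IVS value was 0.082 on the processed signal. For PPID they were ARL1, a small GTPase of the Golgi (0.62 and 0.90), TNNC2, a troponin of fast muscle (0.54 and 0.81), and C5aR, a complement receptor (0.63 and 0.69). Without slide 3 their IVS values were 0.58, -0.17 and -0.025.

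**Figure D5:**
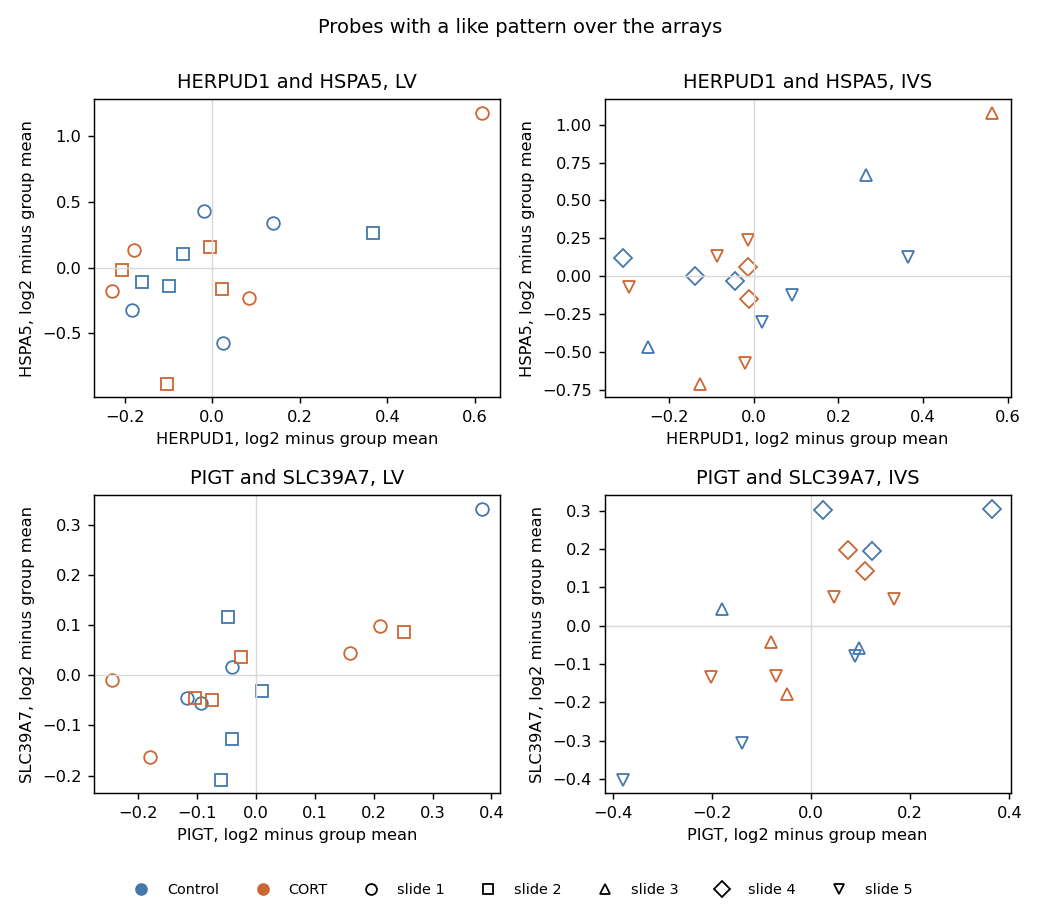
Deviation from the group mean (log2) of HERPUD1 against HSPA5 and of PIGT against SLC39A7, in the LV (left) and IVS (right), with 1 point per array (n = 16 in each panel), colour for the group and marker for the slide. The HERPUD1 and HSPA5 likeness (r = 0.66 and 0.65) leans on a high CORT lamb in each tissue. PIGT and SLC39A7 gave r = 0.74 and 0.76, and 0.61 and 0.56 without the 2 arrays farthest from the PIGT median. In the LV, Control lamb 4 was the highest for both PIGT and SLC39A7.

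Few other genes of these pathways were named on the array, and each was read by its brightest probe. Of 51 genes of the unfolded protein response and degradation, 5 were tested, and 1 passed an unadjusted p under 0.05 in the LV, in the lower direction, where 2.2% of all probes were called lower, and 0 in the IVS. That gene was BAX, a promoter of cell death, at -0.23 (SE 0.082, adjusted p = 0.999 with limma). The study had already listed BAX as lower in the LV from these same arrays. HSPA5, here read by a second and brighter probe, differed by 0.036 (SE 0.22) in the LV and -0.072 (SE 0.20) in the IVS, and ATF4, a transcription factor of the response, by 0.070 (SE 0.10) and 0.27 (SE 0.16). ATF6, a stress sensor, differed by 0.089 (SE 0.11) and -0.13 (SE 0.096), and DDIT3, also called CHOP, by -0.014 (SE 0.082) and 0.0012 (SE 0.11). These 4 were named after their values were seen, because the list was so short. The median difference of the list was 0.036 in the LV and 0.0012 in the IVS, beside 0.0015 and -0.0082 over all probes.

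Of 50 folding enzymes of the endoplasmic reticulum, 2 were tested, PDIA5 and ERP29. ERP29, a luminal folding factor, exceeded Control in the IVS of CORT lambs by 0.19 (SE 0.079, adjusted p = 0.993 with limma), where 1.39% of all probes were called higher without adjustment. Its difference in the LV was -0.0015 (SE 0.059). The study had already listed ERP29 among genes higher in the IVS from these same arrays. For N-linked glycosylation, the pathway of ALG1, 2 of 41 genes were tested, NUS1 and DDOST, and 0 passed in either tissue, with differences between -0.090 and 0.092. Of 30 genes of GPI anchor synthesis, the pathway of PIGT, 0 were named on the array. Of 47 isomerases and HSP90 cochaperones, the class of PPID, 3 were tested (PPIA, PPIE and HSP90AA1), and of 44 cytosolic heat shock proteins 2 (CRYAB and TCP1), and 0 of these passed. Among markers of other cell types in the LV, COL3A1 of fibroblasts was lower by -0.28 (SE 0.10) and CD14 of myeloid cells by -0.16 (SE 0.071) in CORT lambs, both at an adjusted p of 0.999 (limma). The other fibroblast markers tested went the other way, DCN by 0.078 (SE 0.11) and VIM by 0.15 (SE 0.12). Of the other leukocyte markers tested, CD3E differed by 0.15 (SE 0.22) and CD3D by -0.058 (SE 0.085). COL3A1 and CD14 were 2 of the 18 marker genes tested, beside the 2.2% of all probes called lower without adjustment. Their part in the differences of the 4 probes was not tested.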

How the data were processed

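RNA from the LV and IVS was hybridized to 1-colour Agilent sheep arrays. The authors deposited scanner output (Agilent Feature Extraction 10.1.1.1, per the submitters' processing notes), holding spot intensities and their local background (arbitrary units), and a table of quantile normalized log2 values for each tissue. Groups were taken from the deposited descriptions. Sex was not used.

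Mean intensities were corrected with normexp (offset 50) against the local median background and quantile normalized within a tissue, or over 32 arrays to compare tissues, in limma 3.58.1 (R 4.3.3, statmod 1.5.0). Control and outlier spots were left out. Probes entered a test if their brightness exceeded the 95th percentile of negative control spots by over 10% on 8 or more arrays (16 of 32). Groups were compared by lmFit and eBayes, two-sided, with Benjamini-Hochberg adjustment over all probes tested. Intervals are 1.96 SE, a nominal 95% that is slightly narrow for this number of arrays. Correlations used 100000 permutations within groups (Python 3.11.15, numpy 2.4.6, scipy 1.17.1). The fits and permutation p-values were tested on simulated data. Those data were independent normal values without slide shifts, so they do not cover the shifts between slides seen here. Arrays give no read depth, so their number limits the precision.

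The 4 probes and the gene lists were chosen with earlier results of these data known. Genes named are these 4, the 3 named probes most like each, and list genes with an unadjusted p under 0.05. Other members of lists with 5 or fewer genes tested, and MB, were named after their values were seen. Gene symbols, for 1444 probes, came from the scanner output or from RefSeq (35057 genes). The study took both tissues from the hearts, but the labels do not state that a number marks the same lamb in both. This is not settled: of 16 pairs of LV and IVS arrays of the same group and number, 7 had a correlation of deviations over 0.1. Arrays were therefore not paired, and comparisons by number hold only if the numbers match. Alternatives were the background correction, normalization, filter, slide or number as a block, array weights and leaving out arrays.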

Additional observations from a re-analysis of the deposited data

Results flagged for a closer look

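In 4 of 16 groups of 8 arrays, 1 array stood apart from the rest, its gap to the nearest other array divided by the group's range exceeding Dixon's critical value at the 95% level. Chance gives this in about 1 in 20 groups of independent normal values. The groups here are not independent, since the 4 probes share arrays, and the probes were chosen on group differences. The 4 of 16 are therefore not judged against that rate. HERPUD1 was 13.30 in LV CORT lamb 2, with the next at 12.77, and 13.34 in IVS CORT lamb 1, with the next at 12.76. In LV Control lamb 4, ALG1 was the lowest at 9.36, with the next at 9.92, and PIGT the highest at 9.65, with the next at 9.28. These values are on the log2 scale.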

How the results depend on the processing

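Over 9 other settings of the processing, LV differences ran from 0.26 to 0.32 for HERPUD1, 0.32 to 0.35 for ALG1, -0.23 to -0.17 for PIGT and 0.21 to 0.30 for PPID. HERPUD1 in the IVS ran from 0.29 to 0.45. Leaving out 1 array at a time gave 0.20 to 0.34, 0.23 to 0.37, -0.23 to -0.14 and 0.18 to 0.27 in the LV, and 0.31 to 0.44 for HERPUD1, -0.0090 to 0.13 for ALG1, -0.065 to 0.041 for PIGT and -0.11 to 0.19 for PPID in the IVS. With the replicate number as a block, the LV difference of PPID stayed 0.21. The IVS interval was then -0.13 to 0.27 for ALG1, which did not hold its LV difference. For PPID it was -0.12 to 0.20, with an upper end too close to 0.21 to decide. With this block no member changed its side after adjustment. The IVS count of probes at an unadjusted p under 0.05 was 639 in place of 419. That count was 879 with slide as a block, and 228 to 852 with 1 array left out (261, 253, 228, 708 and 852 without IVS Control lambs 1, 2, 3, 5 and 8). In the LV it was 734 in place of 444 with weighted arrays. IVS against LV gave 70 probes with Control lambs only, 44 with CORT lambs only and, chosen after seeing the data, 3156 with IVS slides 3 and 4 only, in place of 1374. Without centring on group means, LV Pearson r was -0.65 for HERPUD1 and PIGT, 0.73 for HERPUD1 and PPID and -0.60 for PIGT and PPID, values that contain the group differences on which the probes were chosen. Without IVS slide 3, r of HERPUD1 between LV and IVS was 0.77. The cause of these moves was not tested.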
